A study of Homo sapiens with 60 samples.

Results

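The E2F and DP transcription factors were followed through all 16 groups of the series by the rows of E2F1, E2F2, E2F3, E2F4, E2F5, E2F6, E2F7, E2F8, TFDP1 and TFDP2, which are 10 of the 38342 gene names in the deposited expression table. The cells were MDA-MB-231, an established triple-negative breast cancer line, given DMSO, the solvent control, or BAY2506856, a compound for which the labels name no target. Treatment lasted 1, 3, 6 or 24 h, with 6 DMSO libraries and 3 libraries each of 100, 300 and 1000 nM at every time, a total of 60. These times are those of the sample labels, whereas the design text mentions a harvest at 24 h only. Whether the replicates came from separate cultures is not in the labels, so a p-value here measures the spread between libraries, which may be technical. Values are FPKM, the reads of a gene per kilobase of transcript and per M reads of the library.

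E2F proteins bind DNA beside genes of DNA replication and cell division, most of them as pairs with a DP protein. E2F1, E2F2 and E2F3 are called activators, because they drive transcription once cyclin-dependent kinases have released them from the retinoblastoma family of pocket proteins. E2F4 and E2F5 mostly repress together with pocket proteins, E2F6 represses with Polycomb proteins, and E2F7 and E2F8 repress without a DP partner or a pocket protein. Several E2F genes are themselves E2F targets.

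The upstream stretches of E2F1, E2F2 and E2F7 are shown because at 24 h the transcripts of E2F1 and E2F2 fell and that of E2F7 missed the threshold. They were taken from RefSeq promoter windows on GRCh38.p14, a later build than the hg19 of the deposited values, and each covers 100 bases upstream of an annotated start on the minus strand. The positions are chr20:33686386-33686485 for E2F1, chr1:23531234-23531333 for E2F2 and chr12:77065570-77065669 for E2F7. Capitals mark the E2F words searched, TTTCCCGC, TTTCGCGC, TTTGCCGC and TTTGGCGC, on either strand.
E2F1: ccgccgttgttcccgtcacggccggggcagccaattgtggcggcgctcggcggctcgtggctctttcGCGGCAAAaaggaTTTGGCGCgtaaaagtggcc
E2F2: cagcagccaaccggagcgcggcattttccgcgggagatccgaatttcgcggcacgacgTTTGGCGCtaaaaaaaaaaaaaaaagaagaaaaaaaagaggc
E2F7: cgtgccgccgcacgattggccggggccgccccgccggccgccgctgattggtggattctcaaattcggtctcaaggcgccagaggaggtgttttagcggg
E2F1 held 2 words, the reverse complement of TTTGCCGC beginning 33 bases before the start and TTTGGCGC beginning 20 bases before it. E2F2 held TTTGGCGC 42 bases before the start, and E2F7 held none of these letters in its window. Over windows of 300 bases, from 250 bases before to 50 after a start, 3.31% of 35116 held a word, and of 8747 tested genes with a window 6.97% had a word in any of their windows. E2F5 was not searched, and E2F8, which fell at every dose at 24 h, had no window. The remaining 8 members had a window and 4 of these a word, namely E2F1, E2F2, E2F3 at 53 and TFDP1 at 120 bases before the start. E2F4, E2F6, E2F7 and TFDP2 had none in these windows, and 16 of 24 G1/S target genes with a window had one. Of the members without a word, E2F4 was called lower at 1000 nM at 24 h. No relation between words and changes was tested. A match of letters is a description and does not show binding.

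All 10 genes had reads in every library and passed the filter of at least 1 FPKM in at least 3 libraries. E2F1 was the most abundant E2F of the DMSO libraries at each time, and with TFDP1 it stood apart from the other members. In DMSO at 24 h the order by mean FPKM was TFDP1 at 49.2 ± 3.26 (SD, n = 6), E2F1 at 38.8 ± 8.85, E2F4 at 13.8 ± 2.4, E2F7 at 13.5 ± 1.24, E2F3 at 13.1 ± 1.41, E2F8 at 10.4 ± 0.692, E2F6 at 5.35 ± 0.454, TFDP2 at 3.37 ± 0.449, E2F5 at 2.69 ± 0.362 and E2F2 at 2.4 ± 0.284. The libraries of E2F4, E2F7 and E2F3 overlapped with their neighbours in this order, as did those of TFDP2, E2F5 and E2F2. E2F6 shares sequence with its processed copies E2F6P1, E2F6P2 and E2F6P3, which read 4.81 to 16.3 FPKM, so its level is uncertain. The pseudogenes of E2F3 stayed at or under 1.07 FPKM, and TFDP3, a DP gene of the testis, at or under 0.184.

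The libraries had 0.475 to 86.5 M reads, recovered from the deposited values, with a median of 11.2 M. Their values of 11 pseudogenes and of MT-ND6 separate 3 library types about which the labels are silent. There were 41 libraries of the first type, 13 of the second and 6 of the third, the last all DMSO at 1 or 3 h. At 24 h, 1000 nM replicates 1 and 3, 300 nM replicate 2 and DMSO replicate 2 were of the second type, all with at most 2.58 M reads. In a model with type terms the second type read 0.56 ± 0.06 (SE) lower on the log2 scale for E2F1 and 0.56 ± 0.06 lower for E2F4. It read 0.38 ± 0.05 lower for E2F2, while E2F5 was 0.29 ± 0.06 and E2F6 0.17 ± 0.04 higher. The transcripts VIM (397 to 642 FPKM), CD44, EGFR and AXL marked the line. Of 6 luminal and receptor markers, ESR1 and PGR stayed at or under 0.0128 FPKM and CDH1 had a median of 0.247, while ERBB2, EPCAM and GATA3 were present with medians of 8.73, 6.14 and 3.51 FPKM. Of 3 leukocyte markers CD3E was at 0 and PTPRC reached 0.101 FPKM, but CD14 had a median of 1.63 and reached 2.83 FPKM. The endothelial markers VWF and CDH5 reached 0.0380 FPKM.

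**Figure D1:**
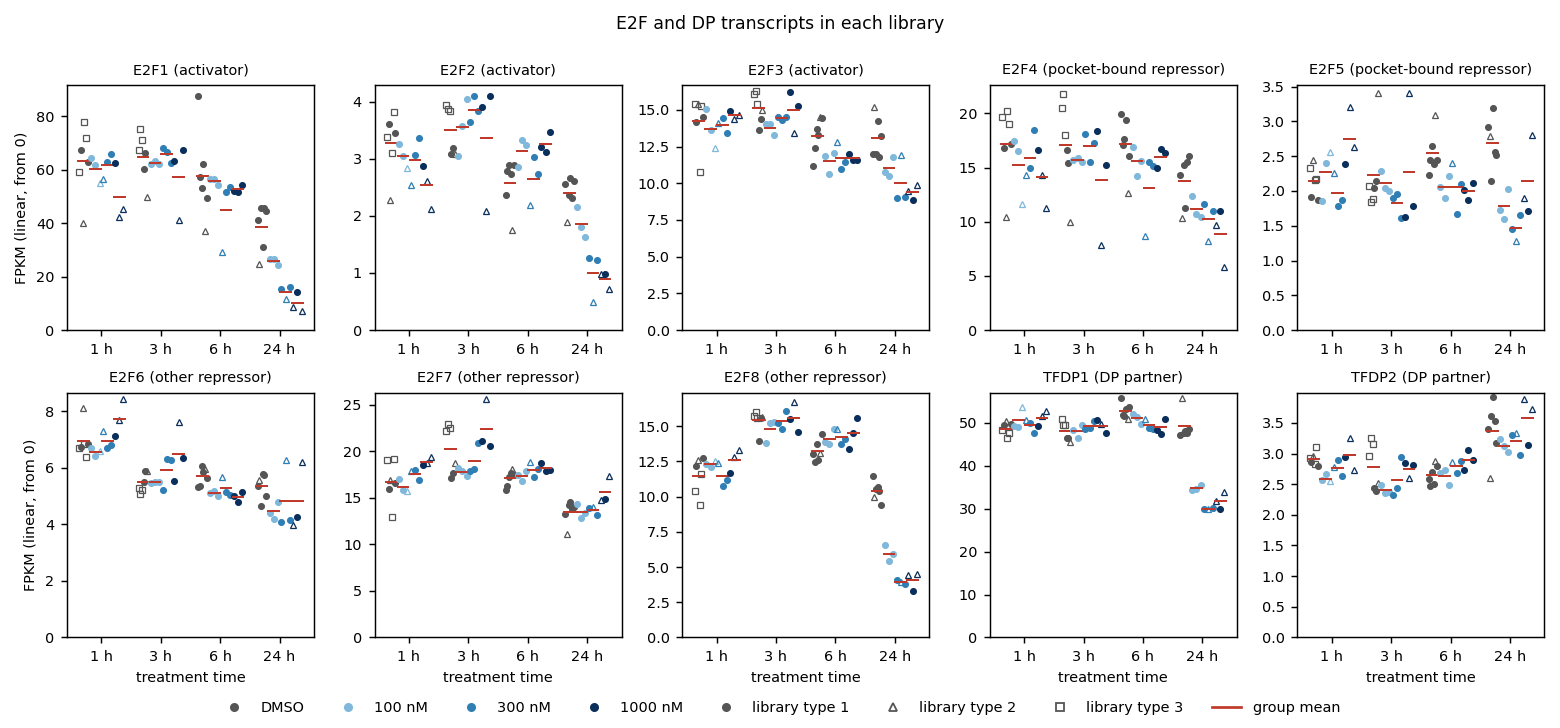
FPKM of each E2F and DP gene in the 60 libraries by treatment time, with dose as colour, library type as symbol and the group mean as a red bar, on linear axes from 0. E2F1, E2F2, E2F8 and TFDP1 lie low in the 300 and 1000 nM libraries at 24 h, and E2F7 does not.

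No member was past the threshold until 24 h. limma with Benjamini-Hochberg adjustment called 0 of 10 members at each of the 9 comparisons with DMSO at 1, 3 and 6 h. Of 15866 tested genes it called 0% after 1 h, 0.132% after 3 h and 2.01% after 6 h of 1000 nM. The shares were 0%, 0.126% and 1.67% at 300 nM, and 0%, 0.0693% and 0.863% at 100 nM. At an unadjusted p under 0.05 there were 2, 1 and 2 members at 1000 nM at 1, 3 and 6 h, where 10.3%, 7.41% and 7.8% of all tested genes were under it. At 300 nM there were 0, 0 and 1, beside 1.21%, 5.88% and 9.86% of all genes, and at 100 nM 0, 1 and 1, beside 5.1%, 5.88% and 5.16%. The test by voom on recovered reads called 0 members in these 9 comparisons as well, and at most 2.88% of all genes. E2F5 and E2F6 lay under all DMSO libraries at 6 h at 100 and 1000 nM, as did 3.43% and 4.06% of tested genes. E2F2 lay above them at 1000 nM (3.33% of genes), at a log2 change of 0.31 (limma adjusted p = 0.636). TFDP2 lay under all DMSO libraries at 1 h at 100 nM (0.914% of genes). E2F1 averaged 52.7 ± 1.4 FPKM (SD, n = 3) at 1000 nM and 57.8 ± 17.0 FPKM (SD, n = 6) in DMSO at 6 h. Within the first library type TFDP1 passed the threshold at 6 h, with log2 changes of -0.13 at 300 nM and -0.12 at 1000 nM (limma adjusted p = 0.0293 and 0.0114), where 4.83% and 7.7% of all genes were called.

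At 24 h the activator genes fell, and so did E2F8 and TFDP1. At 1000 nM limma called 6 of 10 members, all lower, where 34.7% of all tested genes were called in either direction and 15.6% were called lower. At 300 nM it also called 6, all lower, against 30.7% of all genes. At 100 nM it called 3, all lower, against 19.7%. The shares called lower were 14.2% at 300 nM and 9.2% at 100 nM. In these bulk samples a smaller number of cells in a phase of the cycle and less RNA per cell cannot be told apart.

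E2F1, an activator that also binds promoters of apoptosis genes, read 8.62, 14.4 and 7.10 FPKM in the 1000 nM libraries at 24 h. The 6 DMSO libraries ran from 24.8 over a median of 42.8 to 45.7 FPKM. Every 1000 nM library lay under the lowest DMSO library, and the 2 libraries of the second type were the lowest. The log2 change was -1.92 ± 0.21 (SE, limma adjusted p = 1.19e-10). At 300 nM E2F1 read 15.4, 11.5 and 16.1 FPKM, a change of -1.38 (limma adjusted p = 4.1e-07), and these libraries also lay under all DMSO libraries. At 100 nM it read 26.7, 26.5 and 24.5 FPKM, which overlapped with DMSO at -0.54 (limma adjusted p = 0.0584), and it passed in 8 of 19 alternative fits. The overlap came from the DMSO library at 24.8 FPKM, of the second type with 0.475 M reads. All 3 libraries of 100 nM were of the first type and lay under the first-type DMSO libraries, at 30.9 to 45.7 FPKM. Within the first type the change at 1000 nM was -1.48, from the single library at 14.4 FPKM, and with type terms it was -1.64.

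E2F2, a second activator, read 0.989, 0.983 and 0.724 FPKM at 1000 nM against 1.89 to 2.67 FPKM in DMSO, without overlap. The log2 change was -1.05 ± 0.15 (SE, limma adjusted p = 1.95e-07) at 1000 nM, -0.99 (7.14e-07) at 300 nM and -0.30 (0.182) at 100 nM. Its shallowest libraries held 5 reads of this gene, so single values carry a large counting error. Within the first type the single 1000 nM library read 0.983 FPKM against 2.31 to 2.67 in DMSO. E2F3, the third activator, moved less. It read 9.49, 8.87 and 9.87 FPKM at 1000 nM against 11.8 to 15.2 in DMSO, again without overlap, with a log2 change of -0.45 ± 0.09 (SE, limma adjusted p = 7.84e-05). At 300 nM it was -0.38 (limma adjusted p = 0.000884, or 0.0691 among only the groups compared), and at 100 nM -0.23 (0.0631).

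Among the repressors the genes went different ways. E2F8 read 4.45, 3.31 and 4.49 FPKM at 1000 nM at 24 h against 9.44 to 11.5 FPKM in DMSO. Its libraries did not overlap with DMSO at any of the 3 doses, and its log2 change was -0.76 at 100 nM, -1.30 at 300 nM and -1.26 ± 0.08 at 1000 nM (limma adjusted p = 1.04e-10, 5e-19 and 1.08e-18). E2F7, its closest relative, read 14.8, 14.9 and 17.3 FPKM at 1000 nM against 11.1 to 14.6 in DMSO. These libraries lay above all 6 DMSO libraries, as did those of 12.3% of tested genes, but the log2 change of 0.21 ± 0.09 missed the threshold (SE, limma adjusted p = 0.063). It passed in only 2 of 19 alternative fits, without the third library type (limma adjusted p = 0.0125) and without DMSO replicate 4 at 24 h (0.0448). Over these 19 fits the log2 change ran from 0.09 to 0.25. At 300 and 100 nM E2F7 stood at 0.03 and 0.00 (limma adjusted p = 0.856 and 0.99).

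E2F4, the most abundant pocket-bound repressor, read 9.67, 11.0 and 5.85 FPKM at 1000 nM against 10.4 to 16.0 in DMSO, and the groups overlapped. Its log2 change was -0.64 ± 0.21 (SE, limma adjusted p = 0.0152). The call was lost when only replicate 3 of 1000 nM was left out, at -0.39 (limma adjusted p = 0.24), and among only the groups compared (0.0657). Within the first type it was -0.37 (limma adjusted p = 0.0344) and with type terms -0.36 (0.0081).

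E2F5 was called lower at 100 and 300 nM, at -0.48 and -0.70 (limma adjusted p = 0.0121 and 0.000112), but stood at -0.29 (0.118) at 1000 nM, where replicate 3 read 2.80 FPKM and the others 1.90 and 1.72. Without that replicate the adjusted p from limma was 0.0236, and within the first type the change was -0.50 (0.0035). The call at 100 nM was lost without replicate 1 or 2 of 100 nM (limma adjusted p = 0.0567 and 0.0873). E2F6 read 3.98, 4.26 and 6.22 FPKM at 1000 nM against 4.64 to 5.77 in DMSO, a change of -0.16 (limma adjusted p = 0.219), and it passed in 5 of 19 alternative fits, such as within the first type at -0.28 (0.0183) and without replicate 3 of 1000 nM at -0.34 (0.0082).

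Of the DP partners, TFDP1, the main dimerization partner of the E2Fs, read 31.9, 30.0 and 33.8 FPKM at 1000 nM, where DMSO ran from 47.3 to 55.8. The log2 change was -0.62 ± 0.05 at 1000 nM, -0.70 at 300 nM and -0.49 at 100 nM (SE, limma adjusted p = 1.8e-15, 2.82e-17 and 1.66e-11). At each dose every treated library lay under every DMSO library. TFDP2, the other partner, read 3.89, 3.14 and 3.72 FPKM at 1000 nM against 2.60 to 3.91 in DMSO, a change of 0.08 ± 0.08 (SE, limma adjusted p = 0.477).

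**Figure D2:**
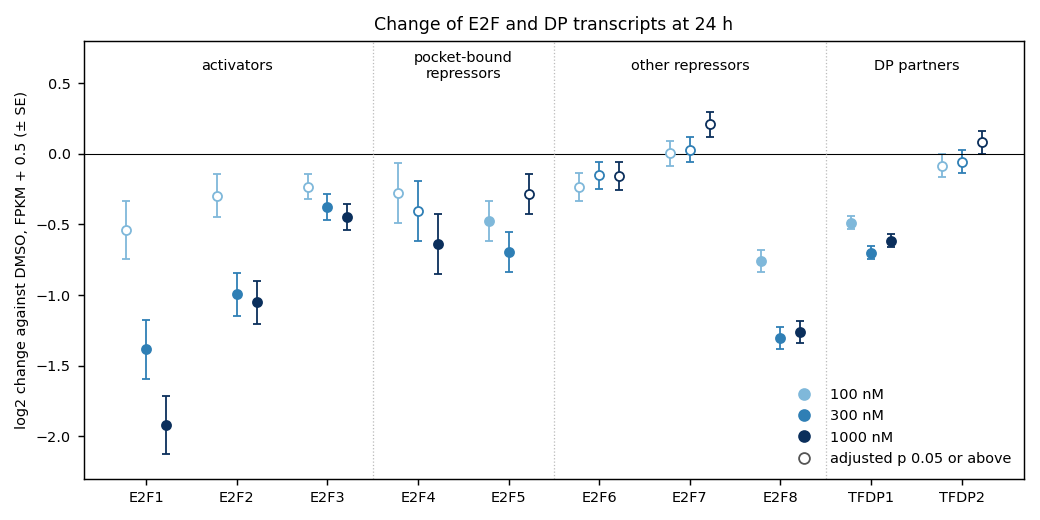
log2 change against DMSO at 24 h with its standard error for each member by dose, grouped by role. Filled points have a limma adjusted p under 0.05, and E2F1 at -1.92 and E2F7 at 0.21 are the lowest and highest of the 1000 nM values.

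At 1000 nM the groups did not overlap, with the treated libraries lower, for E2F1, E2F2, E2F3, E2F8 and TFDP1, beside 10.6% of all tested genes. At 300 nM this held for E2F1, E2F2, E2F5, E2F8 and TFDP1 (10.9% of genes). At 100 nM it held for E2F3, E2F5, E2F8 and TFDP1 (12.1% of genes).

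**Figure D3:**
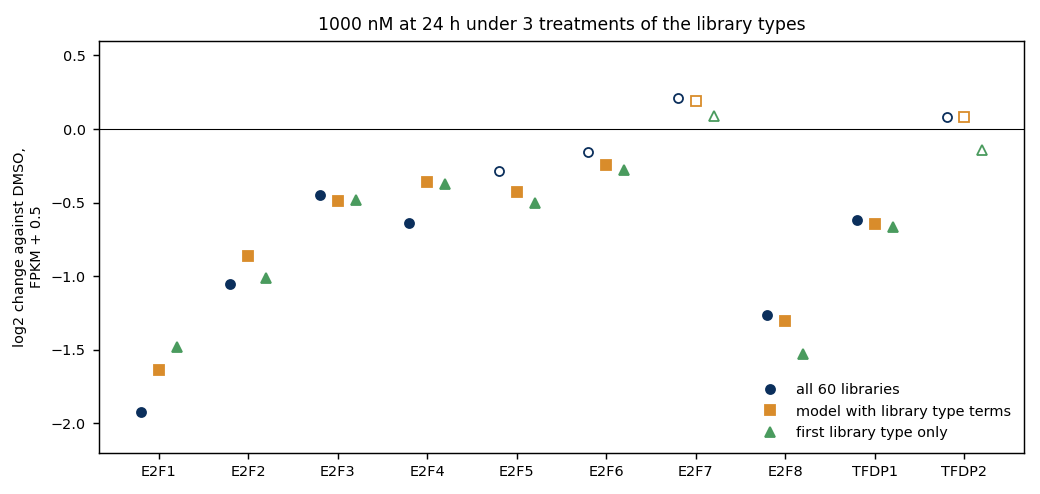
log2 change of each member at 1000 nM at 24 h in all 60 libraries, in a model with terms for the library types and within the first type, where 1000 nM has 1 library. Filled symbols have a limma adjusted p under 0.05, and E2F1 spans -1.92 to -1.48 over the 3 fits.

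With type terms or within the first type limma called 8 of 10 members lower at 1000 nM at 24 h, where 47.5% and 35.9% of all genes were called. E2F7 and TFDP2 were the members not called in either fit. Within the first type 8 members were called lower at 300 nM as well and 8 at 100 nM, beside 42.8% and 35.7% of all genes. The lone 1000 nM library of the first type is assumed to vary like the other groups. The part of library type or depth in the pooled values was not tested beyond these fits.

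The mixture of E2F transcripts at 24 h differed between the doses. E2F1, E2F2 and E2F3 made up 54.1 ± 2.34% (SD, n = 6) of the summed FPKM of the 8 E2F genes in DMSO at 24 h. Their share was 51.3 ± 1.36% (SD, n = 3) at 100 nM, 42.5 ± 1.23% at 300 nM and 36.3 ± 4.22% at 1000 nM. The 300 and 1000 nM libraries lay at 32.6 to 43.9%, under every DMSO library of that time, and the single 1000 nM library of the first type was at 40.9%. At 6 h the share was 54.9% at 1000 nM and 56.4% in DMSO.

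The activators together averaged 54.2 FPKM in DMSO and 20.4 FPKM at 1000 nM at 24 h, and the 5 repressors together 45.7 and 35.5 FPKM. E2F1 read 2.12 to 3.32 times as many FPKM as E2F7 in the DMSO libraries. At 1000 nM this ratio was 0.584, 0.972 and 0.411, below 1 in all 3 libraries. The value of 0.972 came from the single library of the first type, with E2F1 at 14.4 and E2F7 at 14.9 FPKM. First-type DMSO libraries ran from 2.12 to 3.32. The lower values came from the second type, which read 0.56 lower on the log2 scale for E2F1. By mean FPKM E2F7 was the second most abundant member at 1000 nM after TFDP1. It was ahead of E2F1 without overlap, but nearly equal to it in the first-type library. The part of library type in this order was not tested. The ratio of E2F7 to E2F8 was 1.30 ± 0.14 (SD, n = 6) in DMSO and 3.89 ± 0.59 (SD, n = 3) at 1000 nM. No test was made of these shares and ratios, which combine genes of 1 list.

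**Figure D4:**
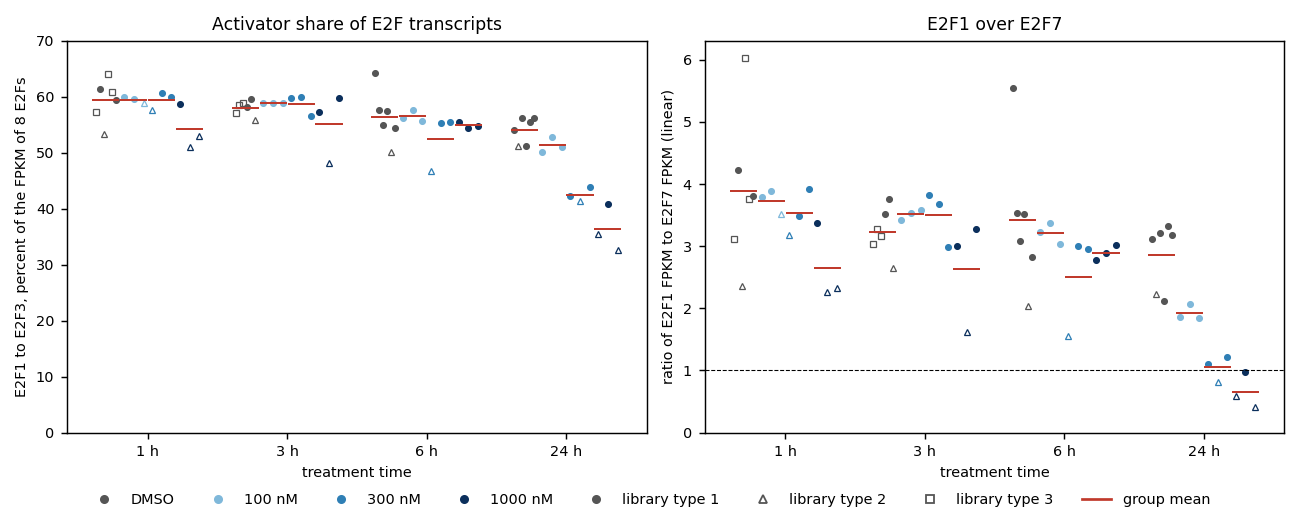
Share of the 3 activators in the summed FPKM of 8 E2F genes (left, percent from 0) and ratio of E2F1 to E2F7 (right, dashed line at 1) in each library by time and dose, with group means in red. The 24 h libraries at 300 and 1000 nM lie under the DMSO libraries in both panels.

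The change at 1000 nM between 6 and 24 h was tested directly as an interaction. limma called 4 members, all with a lower change at 24 h, where 15.1% of all genes were called and 6.95% in this direction. The differences were -1.84 ± 0.29 (SE) for E2F1, -1.36 ± 0.22 for E2F2, -1.39 ± 0.11 for E2F8 and -0.51 ± 0.07 for TFDP1 (limma adjusted p = 5.01e-06, 4.77e-06, 4.1e-14 and 6.99e-08). E2F7 differed by 0.12 ± 0.13 and TFDP2 by -0.02 ± 0.12, and neither passed. All 3 libraries of 1000 nM at 6 h were of the first type and 2 of those at 24 h of the second. Time and library type are thus partly confounded here. Over 28 alternative fits the difference ran from -2.13 to -1.28 for E2F1 and -1.75 to -1.11 for E2F2. It ran from -1.72 to -1.26 for E2F8 and -0.58 to -0.46 for TFDP1.

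Between 100 and 1000 nM at 24 h limma called 3 members lower at the higher dose, beside 4.94% of all genes in either direction and 2.86% lower. These were E2F1 at -1.38 ± 0.24 (SE), E2F2 at -0.75 ± 0.18 and E2F8 at -0.50 ± 0.09 (limma adjusted p = 8.27e-05, 0.00511 and 0.000125). All 3 libraries of 100 nM were of the first type and 2 of the 1000 nM libraries of the second, so dose and library type are partly confounded here. Over 16 alternative fits the difference ran from -1.66 to -0.82 for E2F1, -0.98 to -0.50 for E2F2 and -0.76 to -0.37 for E2F8. The E2F2 call was lost without 100 nM replicate 1 or 1000 nM replicate 3 (limma adjusted p = 0.0562 and 0.0597). When only the groups compared entered the fit, limma called 0 members here, but also only 0.0189% of all genes. TFDP1 stood at -0.13 ± 0.05 and missed the threshold (limma adjusted p = 0.157).

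The DMSO cells also changed with time. From 1 to 24 h limma called 4 members lower, beside 18.2% of all genes in either direction and 8.45% lower. These were E2F1 at -0.70 (limma adjusted p = 0.00202), E2F2 at -0.37 (0.029), E2F6 at -0.35 (0.0013) and E2F7 at -0.30 (0.00246). DMSO at 1 h holds 3 libraries of the third type, and without that type E2F1 stood at -0.54 and E2F2 at -0.30 (limma adjusted p = 0.117 and 0.284). The E2F2 call was also lost without any 1 of DMSO replicates 1, 2, 5 and 6 at 1 h or replicate 2 at 24 h (limma adjusted p = 0.0535 to 0.0905). E2F7 missed the threshold among only the groups compared (limma adjusted p = 0.106). E2F8 was 11.5, 15.4, 13.2 and 10.4 FPKM in DMSO at 1, 3, 6 and 24 h.

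Of the pocket protein and MuvB genes, 10 of 11 could be tested. At 1000 nM at 24 h limma called 7 lower and 1 higher, with a median log2 change of -0.61 against 0.03 over all tested genes, of which 34.7% were called, 15.6% lower and 19.1% higher. RBL1, the pocket protein p107, fell by 1.05 ± 0.14 (SE, limma adjusted p = 2.25e-08), from 14.5 ± 1.94 FPKM (SD, n = 6) to 6.77 ± 1.06 (SD, n = 3). RBL2, the pocket protein p130 of resting cells, rose by 0.51 ± 0.10 (limma adjusted p = 7.13e-05), and RB1 stood at 0.35 ± 0.15 (0.0759). LIN52, a subunit of MuvB, fell by 0.85, and MYBL2 and FOXM1, which join MuvB in dividing cells, fell by 1.08 and 0.76. RB1 passed without 1000 nM replicate 2, at 0.53 (limma adjusted p = 0.0121), and stood at -0.02 within the first type.

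The cyclins, kinases and inhibitors that act on the pocket proteins gave 6 lower and 3 higher of 13 tested, with a median of -0.38. The count called higher is near the 19.1% of all tested genes, and 15.6% of all tested genes were called lower. CDC25A, the phosphatase that activates CDK2, fell by 2.11, CCNE2 and CCNE1, the E cyclins, by 2.01 and 1.55. The inhibitors CDKN1C, CDKN1A and CDKN1B, which encode p57, p21 and p27, rose by 1.53, 0.96 and 0.45 (limma adjusted p = 0.000301, 0.000579 and 9.68e-05). CDKN2A and CDKN2B, which encode inhibitors of CDK4 and CDK6, were at 0 FPKM in all 6 DMSO libraries at 24 h. CCND1, cyclin D1, fell at 6 h by 0.51 ± 0.05 (SE, limma adjusted p = 6.06e-10), and stood at -0.10 ± 0.05 (0.144) at 24 h. CDC25A had also fallen by 0.38 at 6 h (limma adjusted p = 0.00161), and CDKN1A stood at 0.72 there (0.0924), or at 0.60 within the first type (1.57e-08). Among only the groups compared, the limma adjusted p of CDC25A at 6 h was 0.0874, and that of CDKN1C at 24 h was 0.0834.

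Among the genes of E2F turnover 3 of 6 were called lower, beside 15.6% of all tested genes, with a median of -0.44. SKP2 and CKS1B, subunits of a ubiquitin ligase that degrades p27, fell by 0.97 and 0.79, and CCNF, cyclin F, of a ubiquitin ligase that degrades E2F proteins, fell by 0.71 (limma adjusted p = 0.00154, or 0.168 among only the groups compared). Of 10 E2F6 complex partners 3 were lower and 1 higher, median -0.06, and these 4 calls are near the 34.7% called among all tested genes. PCGF6 and WDR5, subunits of the Polycomb complex of E2F6, fell by 0.59 each, L3MBTL2 fell by 0.41, and MAX rose by 0.19 (limma adjusted p = 0.0319). L3MBTL2 missed the threshold in 5 of 19 alternative fits, among them those without 1000 nM replicate 1 (limma log2 change -0.24, adjusted p = 0.291) or without DMSO replicate 1 or 5 (0.0520 and 0.0665), the fit with type terms (0.0599) and the fit of only the groups compared (0.299). MAX missed it in 8 of 19, among them those without 1000 nM replicate 1 or 2 or DMSO replicate 4 or 6 (limma adjusted p = 0.0841, 0.113, 0.0768 and 0.0549) and the fit of only the groups compared (0.146). In that last fit WDR5 missed it as well (limma adjusted p = 0.0505). Over the 19 fits the list had 1 to 7 calls, 1 of them with only the groups compared and 2 without 1000 nM replicate 1. Of the 5 germline genes that E2F6 represses, 1 could be tested, MAEL at -0.34 (limma adjusted p = 0.181).

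Downstream, limma called all 30 G1/S target genes lower at 1000 and 300 nM at 24 h and 27 of 30 at 100 nM. The shares of all tested genes called lower were 15.6%, 14.2% and 9.2%. The list medians of the log2 change were -1.38, -1.16 and -0.67. This list shares members with the lists above, such as CCNE2, CDC25A and RBL1. Like the other lists, it was chosen with earlier results of these data known, so its counts are descriptions. CDC6, which loads the replicative helicase, fell by 2.17 ± 0.07 (SE, limma adjusted p = 7.77e-30), from 26.3 to 5.46 FPKM. UHRF1, which maintains DNA methylation, fell by 2.07 (limma adjusted p = 9.69e-16). At 6 h of 1000 nM 1 of the 30 was called, CDC25A, beside 2.01% of all tested genes. CDC6 passed there within the first type at -0.19 (limma adjusted p = 0.00535), where 7.7% of all genes were called.

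The G2/M genes bound by MuvB gave 14 of 15 lower at 1000 nM at 24 h, beside 15.6% of all tested genes, with a median of -0.77. AURKB and CDC20, which act in chromosome separation, fell by 1.37 and 1.09, CCNA2, cyclin A2, by 1.00, and the kinesin KIF23 by 0.91. Of 7 apoptosis genes bound by E2F1, 1 was lower and 2 higher, with a median of 0.12, and these 3 calls are likewise near the 34.7% of all tested genes. TP73, a relative of p53, fell by 0.82 (limma adjusted p = 0.0011) at a level of 0.794 FPKM in DMSO. BBC3, which encodes PUMA, rose by 1.31 (limma adjusted p = 0.00203), and APAF1, of the apoptosome, by 0.44. BBC3 missed the threshold without 1000 nM replicate 2, at 0.89 (limma adjusted p = 0.061), and among only the groups compared (0.0856). At 6 h APAF1 rose by 0.44 (limma adjusted p = 0.0132), a call lost without any 1 of the 3 treated libraries (0.0622 to 0.107) and among only the groups compared (0.103).

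With type terms at 1000 nM at 24 h limma called 30 of 30 G1/S genes and 15 of 15 G2/M genes lower. The pocket and MuvB list gave 7 lower and 1 higher in this fit, where 47.5% of all tested genes were called in either direction. The G1/S count was 30 in all 19 alternative fits.

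**Figure D5:**
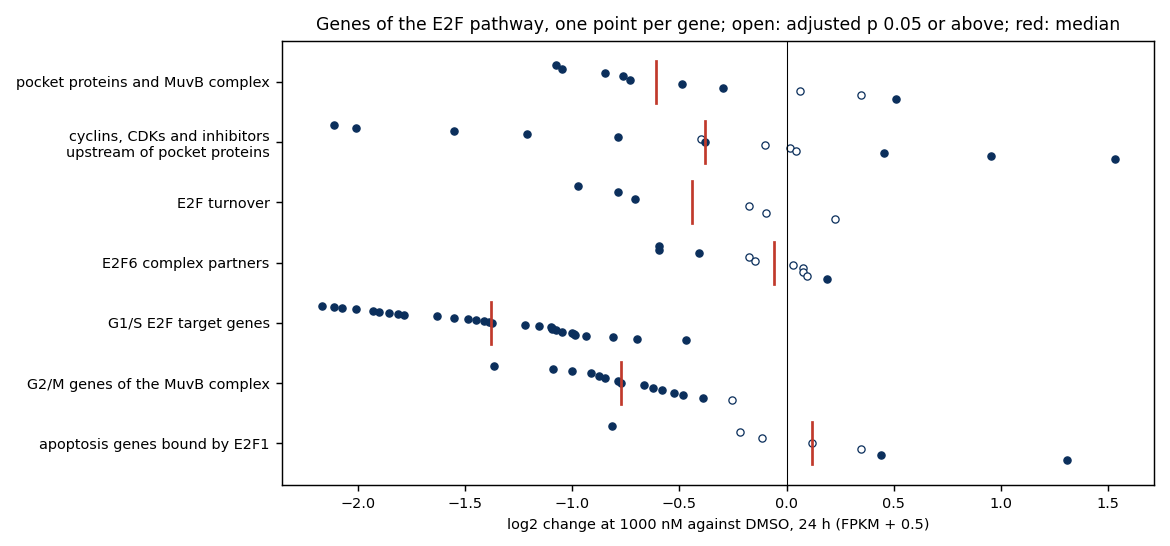
log2 change at 1000 nM at 24 h for the tested genes of 7 pathway lists, with list medians in red. Filled points have a limma adjusted p under 0.05, and the 30 G1/S genes lie at or under -0.47.

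Across the 16 group means, E2F1 followed E2F2 with Pearson r = 0.974 and E2F8 with 0.942, and TFDP2 with -0.819. These are descriptions, since the groups share libraries' depth and type and the 24 h groups stand apart from the rest. Of 8149 genes with a mean of at least 5 FPKM outside the lists, PFAS (r = 0.995) and ERCC2 (0.994) were most like E2F1, and 730 had an r over 0.9. CPSF4 (0.978) and BOP1 (0.969) were most like E2F4. PQBP1 (0.884) and LANCL2 (0.860) were most like E2F7, for which 0 genes were over 0.9. IFI16 (0.948) and ARFGAP3 (0.940) were most like TFDP2.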

How the data were processed

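MDA-MB-231 poly(A) RNA was sequenced as single reads in 60 libraries. Per the submitters' processing notes the authors used STAR 2.4.2a, hg19, featureCounts 1.4.6-p2 (Subread) and DESeq2. The gene annotation used is not named there. The authors deposited log2(FPKM + 1) values, which were turned back into FPKM. The tests had been planned for FPKM. Whole reads were recovered from the steps of the FPKM. All values above 0 (100%) lay within 0.01 of a whole read, and the recovery was tested on simulated data. Depth was 0.475 to 86.5 M reads. Reads carry no molecular identifiers.

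The 15866 genes that reached 1 FPKM in 3 or more libraries were fitted with limma 3.58.1 (R 4.3.3) as log2(FPKM + 0.5), with 1 mean per group, a mean-variance trend, robust variances and 44 residual degrees of freedom. Fold changes on this scale understate those of low genes. A gene was called where its Benjamini-Hochberg adjusted p was under 0.05, separately in each of 15 comparisons. The fit was tested on simulated data. Alternatives were array weights, a pseudocount of 0.1, no filter, only the groups compared, median-of-ratios scaling, library type terms, the first type only, no libraries under 2 M reads, voom on recovered reads, and each library left out. The fit without the third type, and all alternatives for pathway genes, were added after seeing the data, as was the choice of the 11 pseudogenes.

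The members and lists were chosen with earlier results of these data known. Named were all members, in each list up to 4 called genes, by size of change at 1000 nM and 24 h, RB1, RBL1, RBL2, CCNE1, CCNE2, CDKN1A, CDKN1B and CCND1, MT-ND6, and the 2 genes most like E2F1, E2F4, E2F7 and TFDP2 over group means. CDKN2A and CDKN2B were named after their values were seen. Promoters were RefSeq windows matched by symbol, for 8 of 10 members, with E2F5 left out of the search. Of the pathway lists, 1 gene is not reported here.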

Additional observations from a re-analysis of the deposited data

Results flagged for a closer look

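In 6 of the 40 groups of 6 DMSO libraries and 1 member, a single library lay far from the other 5, by Dixon's test, which chance alone flags in about 1 in 20 groups. At 1 h E2F3 was lowest in DMSO replicate 4 at 10.7 FPKM, a library of the third type, E2F4 was lowest in replicate 3 at 10.4 FPKM and E2F6 was highest in replicate 3 at 8.12 FPKM. At 3 h E2F5 was highest in DMSO replicate 6 at 3.41 FPKM and E2F8 lowest in replicate 4 at 14.0 FPKM. At 24 h TFDP1 was highest in DMSO replicate 2 at 55.8 FPKM, the library of 0.475 M reads. Of these, DMSO replicate 3 at 1 h, replicate 6 at 3 h and replicate 2 at 24 h were of the second library type.

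The effect of 1000 nM differed between 6 and 24 h by the interaction test in limma for 4 members. The differences in log2 change were -1.84 for E2F1, -1.36 for E2F2, -1.39 for E2F8 and -0.51 for TFDP1. Library type is partly confounded with time in these differences.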

How the results depend on the processing

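No log2 change of a member or named pathway gene that was called turned its direction in any alternative, and sign changes occurred only among changes called in neither fit. The number of members called at 24 h was 2 to 5 at 100 nM, 6 to 7 at 300 nM and 6 to 7 at 1000 nM when each library was left out in turn. The same range was 2 to 3 for 1000 against 100 nM, 4 to 4 for the change from 6 to 24 h and 3 to 6 for DMSO over time. At 1, 3 and 6 h it was 0 to 0. At 100 nM and 24 h the count of 3, beside 19.7% of all genes, became 8 with array weights (40.3%), 8 in the first type (35.7%) and 7 with type terms (30.6%). It became 5 with median-of-ratios scaling, 6 with voom and 5 without the libraries under 2 M reads. The share of all genes is not given for these fits, so their counts cannot be read as particular to the members. For 1000 against 100 nM the count went from 3 to 6 with array weights (44.3% of all genes) and to 0 with only the groups compared (0.0189%). For DMSO over time it went from 4, beside 18.2% of all genes, to 8 with array weights (30.6%) and 7 in the first type (21.7%). With only the groups compared it was 2 there. The share of all genes is not given for that fit either, so this count cannot be read as particular to the members. At earlier times, where the count was 0, array weights called 5 members at 1000 nM at 1 h (beside 40.2% of all genes), 4 and 3 at 100 and 300 nM at 3 h (23.3% and 19.3%), and 1, 3 and 5 at 100, 300 and 1000 nM at 6 h (7.42%, 13.3% and 13.6%), and the first type gave 1 at 300 nM and 1 at 1000 nM at 6 h (4.83% and 7.7%). Over the 19 alternative fits the log2 change at 1000 nM and 24 h ran from -2.25 to -1.48 for E2F1, -1.44 to -0.86 for E2F2, -0.81 to -0.36 for E2F4, -1.58 to -1.13 for E2F8 and -0.68 to -0.57 for TFDP1. It ran from 0.75 to 2.03 for CDKN1C, 0.74 to 1.97 for BBC3 and -1.86 to -0.63 for TP73. The array weights stopped before convergence. The cause of these moves was not tested. No paired analysis was possible because the titles number the libraries serially and carry no replicate numbers. The shallowest libraries held as few as 5 reads of E2F2, 8 of E2F5 and 11 of E2F6.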
